A study of Mus musculus with 8 samples.

Results

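A set of 10 genes encoding molecules with which regulatory T cells (Treg) restrain other cells was compared between Nrp-1+ and Nrp-1- induced Treg (iTreg). They were taken by gene symbol: Il10, Ebi3, Il12a and Fgl2 (secreted cytokines and a secreted fibrinogen-like protein), Gzmb, Gzma and Prf1 (granule proteins of cytolysis), Entpd1 and Nt5e (cell surface enzymes that make adenosine), and Areg (an epidermal growth factor (EGF) family ligand). All 10 were present among the 23361 genes of the series, and 6 reached the mean of 1 FPKM (fragments scaled by transcript length and by mapped fragments of the library) over the 8 libraries that was required for the test, as did 10467 genes in all. Of these 6, Ebi3, Fgl2 and Nt5e were higher in Nrp-1+ iTreg, Prf1 and Entpd1 were lower, and Gzmb did not pass the test. Gzma, Il10, Il12a and Areg had means under 1 FPKM in both groups and were too low to read.

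Treg act on other cells through several routes. Secreted IL-10 and IL-35, the latter a dimer of the products of Ebi3 and Il12a, act on receptors of T cells and antigen-presenting cells. Perforin and granzymes can kill target cells, and the enzymes CD39 (Entpd1) and CD73 (Nt5e) turn extracellular ATP through AMP into adenosine, which quiets T cells through adenosine receptors. Amphiregulin (Areg) is known for tissue repair by Treg.

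All libraries came from B6 Foxp3-RFP reporter mice, labelled wild-type (WT), whose Foxp3+ cells carry a red fluorescent protein. Naive CD4+ T cells were cultured with anti-CD3/CD28 microbeads, TGF-β at 2 ng/ml and IL-2 at 50 U/ml for 3 days according to one label, while another label gives day 5. Viable CD4+ Foxp3-RFP+ cells were then sorted into Nrp-1+ iTreg (4 libraries) and Nrp-1- iTreg (4 libraries), so both groups had received the same agents. The libraries are labelled as biological replicates 1 to 4, but nothing says whether they came from separate animals or cultures, and the p-values therefore measure the spread between these libraries, which may be technical.

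The sorted gene Nrp1, which encodes neuropilin-1, had a mean of 21.5 ± 0.709 FPKM (SD, n = 4) in the libraries labelled Nrp-1+ against 4.95 ± 0.262 in those labelled Nrp-1-, in the direction of the labels. The T cell markers Cd3e, Cd4 and Foxp3 were high in both groups, with means of 222 and 235, 315 and 325, and 116 and 109 FPKM in Nrp-1+ and Nrp-1- iTreg. Depth, estimated from the steps between low FPKM values, was about 15000000 to 23000000 fragments per library. Short RNA genes took between 1.77% and 43.9% of the summed FPKM of a library. Proliferation genes were higher in Nrp-1+ iTreg in 10 of 10 cases, with a summed level of 1150 to 1200 FPKM against 608 to 626, and their part in the results below was not tested. The RNA is from bulk populations, in which a lower share of cells expressing a gene and less RNA per cell cannot be told apart.

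The background for the counts of members, and of the other gene lists below, is large. Of the 10467 tested genes, 40.9% passed the test (limma, adjusted p under 0.05) in either direction, 20.9% higher and 20.0% lower in Nrp-1+ iTreg, and in 39.5% the groups did not overlap. Of the 6 tested members, 5 passed, 3 higher and 2 lower, and in 4 the groups did not overlap. The median log2 fold change of the 6 was 0.12, beside -0.016 over all tested genes. Fgl2 passed the filter only through its level in Nrp-1+ iTreg, so these counts carry no weight of their own.

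**Figure D1:**
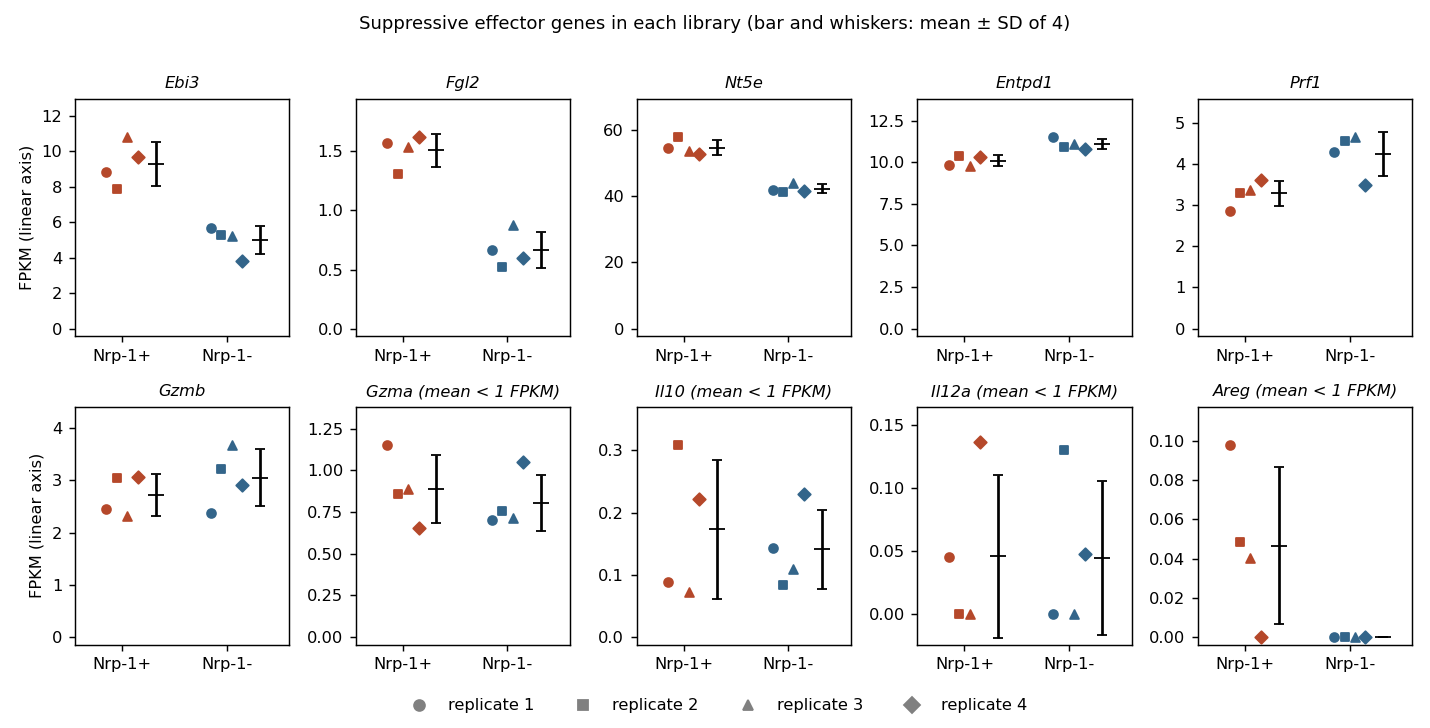
FPKM of each of the 10 genes (vertical axes, linear, one scale per gene) in the 4 Nrp-1+ and 4 Nrp-1- iTreg libraries, with symbols for replicates 1 to 4 and mean ± SD beside them. Ebi3, Fgl2 and Nt5e lie higher in every Nrp-1+ library, Entpd1 lies lower, and the other genes overlap between the groups.

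The promoter windows of 3 members are shown here because they hold the genes that rose most and, for contrast, a granule gene that did not pass the test. They are 200 bases of RefSeq sequence (GRCm38.p6) on the strand of the gene, from 250 to 51 bases before its annotated start, and contain no annotated exon. Capitals mark motif matches. The windows are chr17:55952373-55952572 (plus strand, Ebi3), chr5:21372423-21372622 (plus strand, Fgl2) and chr14:56262385-56262584 (minus strand, Gzmb).
Ebi3: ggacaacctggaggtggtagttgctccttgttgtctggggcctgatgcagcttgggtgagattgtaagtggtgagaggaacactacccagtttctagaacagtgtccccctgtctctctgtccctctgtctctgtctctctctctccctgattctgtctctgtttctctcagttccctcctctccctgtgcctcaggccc
Fgl2: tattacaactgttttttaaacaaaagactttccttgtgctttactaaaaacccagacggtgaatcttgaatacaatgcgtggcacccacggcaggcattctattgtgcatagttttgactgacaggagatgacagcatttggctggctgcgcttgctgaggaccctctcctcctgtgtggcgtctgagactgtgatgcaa
Gzmb: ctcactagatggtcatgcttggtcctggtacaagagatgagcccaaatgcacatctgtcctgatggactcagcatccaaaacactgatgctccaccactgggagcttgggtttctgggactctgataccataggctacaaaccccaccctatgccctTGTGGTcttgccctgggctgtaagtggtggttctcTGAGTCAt
Matches of the 7 motifs searched did not overlap in the windows shown. KappaB was searched on the strand of the gene only, the others on both strands. The motifs were AP-1 (TGANTCA), RUNX (TGTGGT), forkhead (TGTTTAC), STAT (TTCNNNGAA), GC box (GGGCGG), E2F (TTTCCCGC or TTTGGCGC) and kappaB. Of 32851 windows of the same length, they matched 5.57%, 11.6%, 2.58%, 5.76%, 24.6%, 1.03% and 3.89%. The Gzmb window held a RUNX match at -93 to -88 and an AP-1 match at -58 to -52 from the start. No motif, searched in this way, matched in the Ebi3 and Fgl2 windows. A match or its absence describes these letters only.

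Among the secreted molecules, Ebi3 showed the largest difference on log2(FPKM + 1) and Fgl2 the largest ratio. Ebi3 (chr17:55952623-55957022, plus strand, RefSeq GRCm38.p6) encodes a subunit shared by IL-35 and IL-27. In Nrp-1+ iTreg it lay at 8.85, 7.86, 10.8 and 9.71 FPKM in replicates 1 to 4, and in Nrp-1- iTreg at 5.66, 5.28, 5.21 and 3.82 FPKM. The lowest Nrp-1+ library was above the highest Nrp-1- library. The means were 9.3 ± 1.25 and 4.99 ± 0.805 FPKM, a ratio of 1.86 (exact two-sided permutation test, p = 0.0286, the smallest that 4 against 4 libraries allow). On log2(FPKM + 1) Ebi3 rose by 0.78 (SE 0.12, 95% interval 0.51 to 1.06, limma adjusted p = 0.00117). That difference stood at the 97.5th percentile of all tested genes, whereas the level of Ebi3 stood at the 30.2nd percentile.

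The partners that Ebi3 needs were low. Il12a (chr3:68690644-68698550, plus strand), the other chain of IL-35, was listed at 0.0455, 0, 0 and 0.137 FPKM in Nrp-1+ iTreg and at 0, 0.13, 0 and 0.0474 in Nrp-1- iTreg. These values correspond to at most about 3.3 fragments in a library, and no difference was detectable at this depth (limma adjusted p = 0.994). Il27, the partner of Ebi3 in IL-27, was at 0 in all 8 libraries. The Ebi3 difference is therefore a difference in the RNA of 1 subunit, and neither dimer was measured.

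Il10 (chr1:131019845-131024970, plus strand) encodes the cytokine IL-10. It lay at 0.0883, 0.308, 0.0726 and 0.222 FPKM in Nrp-1+ iTreg and at 0.143, 0.0842, 0.109 and 0.23 in Nrp-1- iTreg, which is about 2.1 to 7.6 fragments in a library. The groups overlapped, with means of 0.173 ± 0.112 and 0.141 ± 0.0636 FPKM (exact permutation test, p = 0.714). The 95% interval of the difference on log2(FPKM + 1) ran from -0.13 to 0.20, on a scale where a pseudocount of 1 shrinks changes of genes this low. The IL-10 RNA of these sorted cells was thus not readable, which says nothing of IL-10 protein or of cells stimulated again.

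Fgl2 (chr5:21372673-21378386, plus strand) encodes a secreted protein that binds Fc receptors. It lay at 1.57, 1.31, 1.54 and 1.62 FPKM in Nrp-1+ iTreg and at 0.664, 0.522, 0.878 and 0.598 in Nrp-1- iTreg. Every Nrp-1+ library was above every Nrp-1- library. The means were 1.51 ± 0.14 and 0.665 ± 0.153 FPKM, a ratio of 2.27, and the gene rose by 0.59 on log2(FPKM + 1) (SE 0.09, limma adjusted p = 0.00103). Because it passed the filter only through Nrp-1+ iTreg, the fit without a filter is given beside it, at a log2 fold change of 0.59 and an adjusted p = 0.000788 (limma). Its level was at the 0.879th percentile of tested genes, with about 93.0 to 134.1 fragments per Nrp-1+ library and 38.7 to 57.8 per Nrp-1- library. The related genes Fgl1, Fga and Fgb were at 0 in all libraries.

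Ebi3 and Fgl2 are also expressed by myeloid cells, which the sort on CD4 and Foxp3-RFP and an earlier depletion with antibodies to CD11b and CD11c, given in the study's methods, would remove. Of 8 myeloid markers 7 were under 1 FPKM, with Lyz2 at 0.0569 and 0.132 and Csf1r at 0 and 0.0198 FPKM in Nrp-1+ and Nrp-1- iTreg. The exception was Itgam, named after its values were seen, with means of 6.7 and 5.56 FPKM (limma adjusted p = 0.00136), and the summed myeloid markers spanned 7.26 to 7.72 against 5.88 to 7.81 FPKM. Their part in the Ebi3 and Fgl2 differences was not tested.

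**Figure D2:**
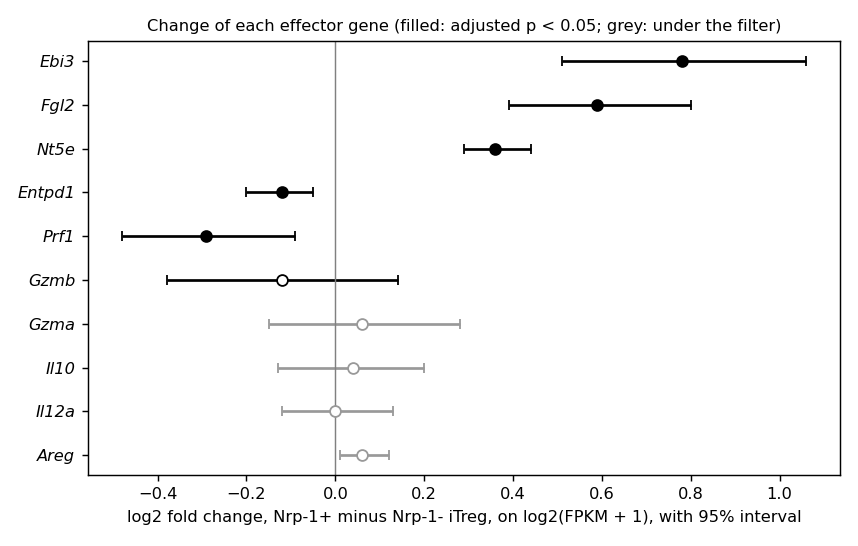
Log2 fold change of each gene, Nrp-1+ minus Nrp-1- iTreg, on log2(FPKM + 1) (horizontal axis), with its 95% interval. Filled points passed the test, the open black point (Gzmb) did not, and the 4 grey points are genes under the filter whose intervals say little because the pseudocount exceeds their level.

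The receptor chains Il10ra, Il10rb and Il6st were expressed at higher levels than Il10 and Ebi3 in both groups. Il10ra, the ligand-binding chain of the IL-10 receptor, had means of 34.2 and 35.1 FPKM in Nrp-1+ and Nrp-1- iTreg (limma adjusted p = 0.35). Of 9 partner genes 6 were tested, none was higher and 2 were lower, with a median log2 fold change of -0.04. Il10rb, the second chain of that receptor, had means of 59.4 and 64.2 FPKM (limma adjusted p = 0.0266), and Il6st, which encodes gp130, 34.7 and 37.1 FPKM (adjusted p = 0.0321). The other tested genes, Il12rb1, Il12rb2 and Il27ra, encode cytokine receptor chains and did not pass the test (limma adjusted p = 0.519, 0.469 and 0.259). The Il10rb call was lost under quantile normalization (adjusted p = 0.0778) and without Nrp-1+ replicate 2 or 4 or Nrp-1- replicate 2 or 4 (up to 0.0675), and the Il6st call without Nrp-1+ replicate 2 or 3 or Nrp-1- replicate 1, 3 or 4 (up to 0.0801).

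Of the granule members, Prf1 was lower in Nrp-1+ iTreg, Gzmb did not pass the test, and Gzma was too low to read. Prf1 (chr10:61297751-61304684, plus strand) encodes perforin, which opens the target cell membrane. It lay at 2.87, 3.3, 3.37 and 3.6 FPKM in Nrp-1+ iTreg and at 4.28, 4.55, 4.65 and 3.48 in Nrp-1- iTreg. Replicates 1 to 3 of Nrp-1- iTreg were above all Nrp-1+ libraries, and replicate 4 lay among the Nrp-1+ values. Prf1 fell by 0.29 on log2(FPKM + 1) (SE 0.09, 95% interval -0.48 to -0.09, limma adjusted p = 0.0284), with means of 3.29 ± 0.306 and 4.24 ± 0.529 FPKM. The exact permutation test on FPKM gave p = 0.0571. The limma call was lost when replicate 1, 2 or 3 of either group was left out (adjusted p up to 0.073), and without Nrp-1- replicate 4 the adjusted p was 0.0059.

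Gzmb (chr14:56258836-56262334, minus strand) encodes granzyme B, a protease that enters target cells and starts apoptosis. It lay at 2.45, 3.04, 2.31 and 3.07 FPKM in Nrp-1+ iTreg and at 2.37, 3.22, 3.67 and 2.92 in Nrp-1- iTreg. The groups overlapped in part, with means of 2.72 ± 0.394 and 3.05 ± 0.543 FPKM (limma adjusted p = 0.437, 95% interval of the log2 difference -0.38 to 0.14). Gzma (chr13:113093824-113100981, minus strand), encoding the protease granzyme A, lay at 1.15, 0.861, 0.888 and 0.652 FPKM in Nrp-1+ iTreg and at 0.7, 0.756, 0.712 and 1.05 in Nrp-1- iTreg, about 10.6 to 21.1 fragments each. Its groups overlapped too (exact permutation test, p = 0.571).

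Within a library the ratio of Prf1 to Gzmb did not separate the groups either, at 1.22 ± 0.164 and 1.42 ± 0.274 (exact permutation test, p = 0.257). Of 19 genes for granule content and release 12 were tested, 1 was higher and 1 lower, with a median log2 fold change of -0.01. Under the alternative settings 0 to 2 were higher and 1 to 2 lower. Stx11, a syntaxin needed for granule fusion, had means of 5.32 and 4.34 FPKM (limma adjusted p = 0.0116). Lamp1, a membrane protein of lysosomes and granules, had means of 112 and 120 FPKM (adjusted p = 0.0125), a call that was lost under quantile normalization (adjusted p = 0.0801). Ctsc, the protease that activates granzymes, had means of 42.9 and 45.9 FPKM and did not pass the test (adjusted p = 0.0516). Gzmd, Gzme and Gzmg were at 0 in all libraries.

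Prf1, Gzmb and Gzma are also expressed by CD8 T cells and NK cells, which the sort on CD4 and Foxp3-RFP and, per the study's methods, a depletion with antibodies to CD8a and CD49b before culture would remove. Cd8a was at 0.0571 and 0.0474 FPKM in Nrp-1+ and Nrp-1- iTreg, near 0, whereas Cd8b1 had means of 7.86 and 10 FPKM and was lower in Nrp-1+ iTreg (limma adjusted p = 0.0119). The summed CD8 markers spanned 7.1 to 8.78 FPKM among Nrp-1+ libraries against 9.33 to 11.3 among Nrp-1- libraries. Of 6 NK markers 5 were under 1 FPKM, with Ncr1 at 0.0177 and 0.0302. Klrd1, named after its values were seen, had means of 3.67 and 4.55 FPKM (limma adjusted p = 0.07) and made up most of the NK sum, which spanned 3.39 to 4.39 against 3.95 to 5.37 FPKM. Their part in the Prf1 difference was not tested.

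The adenosine-making enzymes moved in opposite directions. Nt5e (chr9:88327609-88372089, plus strand) encodes CD73, which turns AMP into adenosine. It lay at 54.6, 57.8, 53.7 and 52.6 FPKM in Nrp-1+ iTreg and at 41.9, 41.3, 44.1 and 41.7 in Nrp-1- iTreg. The groups were well apart, with means of 54.7 ± 2.24 and 42.3 ± 1.23 FPKM. Nt5e rose 1.29-fold, or by 0.36 on log2(FPKM + 1) (SE 0.03, 95% interval 0.29 to 0.44, limma adjusted p = 7.82e-05). It was the most abundant member per transcript length in both groups, at the 80.6th percentile of tested genes.

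Entpd1 (chr19:40612366-40741602, plus strand) encodes CD39, which turns ATP and ADP into AMP. It lay at 9.86, 10.4, 9.75 and 10.3 FPKM in Nrp-1+ iTreg and at 11.5, 10.9, 11.1 and 10.8 in Nrp-1- iTreg. The groups did not overlap, but the gap was small, with means of 10.1 ± 0.345 and 11.1 ± 0.288 FPKM. Entpd1 fell by 0.12 on log2(FPKM + 1) (SE 0.03, 95% interval -0.20 to -0.05, limma adjusted p = 0.0165), a change of -8.82% in mean FPKM.

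The ratio of Nt5e to Entpd1 within a library does not depend on how the libraries are scaled. It was 5.54, 5.53, 5.51 and 5.09 in Nrp-1+ iTreg and 3.66, 3.79, 3.96 and 3.85 in Nrp-1- iTreg, with means of 5.42 ± 0.22 and 3.82 ± 0.129. The values of the 2 genes fix that the groups do not overlap, so the ratio is given as a description, with no test. It compares RNA and not enzyme activity.

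**Figure D3:**
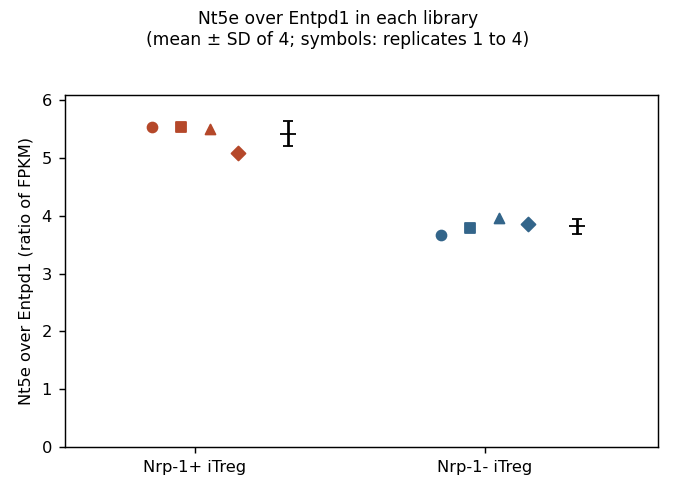
Ratio of FPKM of Nt5e over Entpd1 (vertical axis, from 0) in each of the 8 libraries, with symbols for replicates 1 to 4 and mean ± SD beside them. The Nrp-1+ libraries lie at 5.09 to 5.54 and the Nrp-1- libraries at 3.66 to 3.96.

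Other genes of purine handling were tested alongside. Of 15 listed genes 10 were tested, 5 were higher and 2 lower in Nrp-1+ iTreg, with a median log2 fold change of 0.10. Slc29a1, a nucleoside transporter that carries adenosine across the membrane, had means of 40.1 and 28.9 FPKM (log2 fold change 0.46, limma adjusted p = 7.81e-05). Pnp, which cleaves inosine, had means of 17.6 and 13 FPKM (adjusted p = 0.000182). Enpp1, an enzyme that makes AMP from ATP by another route than CD39, had means of 4.93 and 6.73 FPKM (log2 fold change -0.38, adjusted p = 0.000457).

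The remaining calls in that list, named after their values were seen, were P2rx7 (an ATP-gated channel), Adk (adenosine kinase) and Entpd5 (an intracellular nucleotidase) among the higher genes, and Dpp4 (CD26, which binds adenosine deaminase) among the lower. Their mean FPKM were 14.8 and 11.7, 18.8 and 14.6, 16.9 and 15.3, and 18.2 and 20.7 in Nrp-1+ and Nrp-1- iTreg. The higher genes thus include enzymes that remove adenosine or its products as well as Nt5e, which makes it. Adora2a, an adenosine receptor of T cells also named after its values were seen, had means of 13.5 and 14 FPKM and did not pass the test (limma adjusted p = 0.473).

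**Figure D4:**
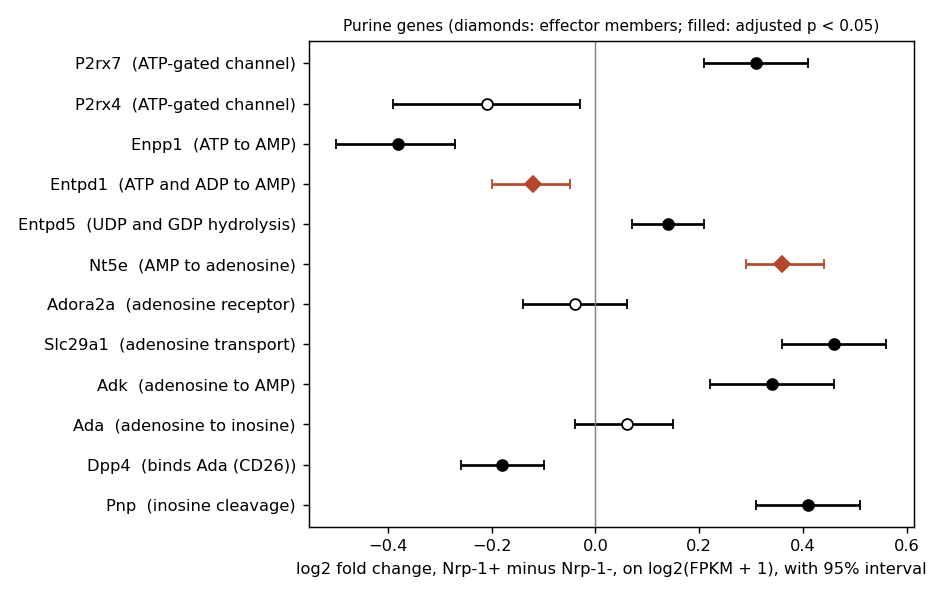
Log2 fold change with 95% interval, on log2(FPKM + 1), of the 10 tested purine genes and of Entpd1 and Nt5e (diamonds), listed by their place in the path from ATP to inosine. Filled symbols passed the test; Nt5e, Slc29a1, Adk, Pnp, P2rx7 and Entpd5 lie to the right (higher in Nrp-1+ iTreg), Entpd1, Enpp1 and Dpp4 to the left.

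Areg (chr5:91139599-91148432, plus strand) was listed at 0.0978, 0.0487, 0.0402 and 0 FPKM in Nrp-1+ iTreg and at 0 in all 4 Nrp-1- libraries. These are about 2.2, 1.1, 1.1 and 0 fragments, so no fold change is given (exact permutation test, p = 0.143). Without Nrp-1+ replicate 4 the limma adjusted p moved from 0.111 to 0.021, still on at most 2.2 fragments in a library. Of 10 genes for EGF family ligands, their release and their receptor 3 were tested, none of them a ligand. The ligand Hbegf, named after its values were seen, had means of 1.16 and 0.68 FPKM and stayed under the filter. Without a filter 2 genes of this list were higher, against 1 with it. Adam10, a protease that releases such ligands, had means of 59.3 and 55.5 FPKM (limma adjusted p = 0.0275). That call was lost under quantile normalization (adjusted p = 0.073) and without Nrp-1+ replicate 1, 2 or 3 or Nrp-1- replicate 2 or 4 (up to 0.0701). Adam17, another such protease, and Rhbdf2, which helps it to mature, did not pass the test (limma adjusted p = 0.662 and 0.341).

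Per transcript length, the order of the mean levels in Nrp-1+ iTreg was Nt5e, Entpd1, Ebi3, Prf1, Gzmb, Fgl2, Gzma, Il10, Areg and Il12a. The ranges of Entpd1 and Ebi3 overlapped there, as did those of Prf1 and Gzmb, of Il10 and Areg, and of Areg and Il12a. In Nrp-1- iTreg the order was Nt5e, Entpd1, Ebi3, Prf1, Gzmb, Gzma, Fgl2, Il10, Il12a and Areg, so Fgl2 and Gzma changed places, as did Areg and Il12a. The ranges of Ebi3 and Prf1, of Prf1 and Gzmb, of Gzma and Fgl2, and of Il10 and Il12a overlapped in that group, and those of Il12a and Areg met at 0. Gzma, Il10, Il12a and Areg were too low to read, so their places and changes of place carry no weight.

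**Figure D5:**
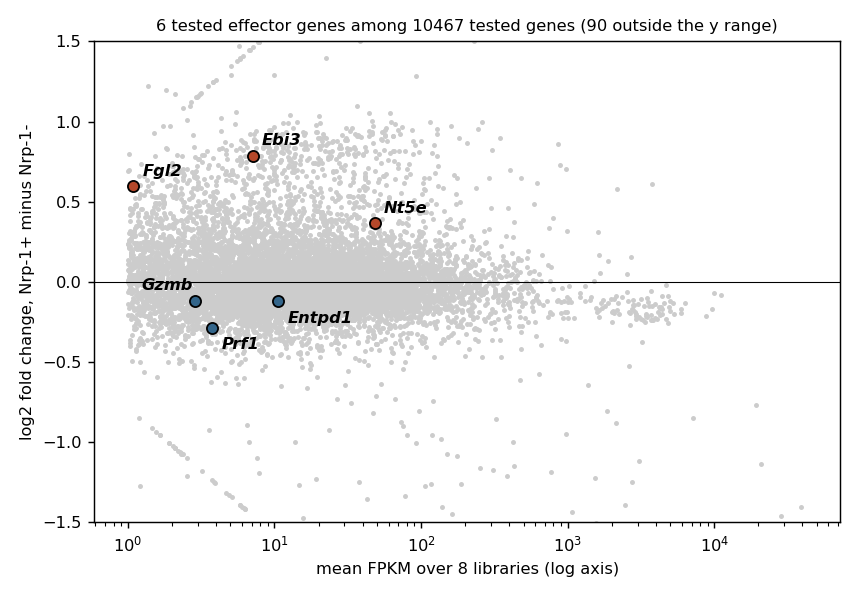
Log2 fold change, Nrp-1+ minus Nrp-1- iTreg (vertical axis), against mean FPKM over 8 libraries (horizontal, log axis) for 10467 tested genes in grey and the 6 tested members in colour, red above 0 and blue below; 90 genes lie outside the vertical range. Ebi3 and Fgl2 stand at the 97.5th and 95.3rd percentile of all log2 fold changes, Prf1 at the 5.16th.

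Among 14 genes that regulate Il10 or granzymes 13 were tested, 1 was higher and 5 lower, with a median log2 fold change of -0.04. Irf4, a transcription factor of activated T cells, had means of 28.8 and 25.6 FPKM (limma adjusted p = 0.00584). Stat3, which carries IL-6 and IL-10 receptor signals, had means of 75.2 and 81.4 FPKM (adjusted p = 0.00329), and Runx3, a factor of cytotoxic T cells, 36.3 and 40.2 FPKM (adjusted p = 0.0064). Maf and Prdm1, known regulators of Il10, are named after their values were seen. Maf was at 5.18 FPKM in both groups (adjusted p = 0.999), and Prdm1 had means of 1.98 and 2.65 FPKM (adjusted p = 0.00859). The other lower genes, also named after their values were seen, were Stat5b, with means of 57.9 and 61.3 FPKM, and Batf, with 50.8 and 55.1 FPKM (limma adjusted p = 0.0202 and 0.0377). The Stat5b call was lost without Nrp-1+ replicate 1 or 2 (adjusted p up to 0.0507). The Batf call was lost under quantile normalization (adjusted p = 0.0538), without a filter, and without Nrp-1+ replicate 1, 2 or 3 or Nrp-1- replicate 1, 2 or 4 (up to 0.0907). Without Nrp-1+ replicate 1 or 2, where both were lost, 3 genes of this list were lower.

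Of 15 other genes of Treg suppression and surface phenotype 14 were tested, 6 were higher and 2 lower, with a median log2 fold change of 0.08. Pdcd1, encoding the inhibitory receptor PD-1, had means of 6.43 and 3.65 FPKM (limma adjusted p = 0.00036). Lrrc32, which holds latent TGF-β on the Treg surface, had means of 30.4 and 24 FPKM (adjusted p = 0.000109), and Il2ra, the IL-2 receptor chain CD25, 266 and 228 FPKM (adjusted p = 0.000108). The 2 lower genes, named after their values were seen, were Ctla4, an inhibitory receptor that takes up B7 ligands, with means of 144 and 160 FPKM (limma adjusted p = 0.000938), and Lag3, an inhibitory receptor for MHC class II, with 2.78 and 4.2 FPKM (adjusted p = 0.0108). Under quantile normalization 3 genes of this list were higher and 1 lower, and the Ctla4 call was lost (adjusted p = 0.0509). The Foxp3 call (limma adjusted p = 0.0245) was lost under that setting (0.0956) and without Nrp-1+ replicate 2 or Nrp-1- replicate 2 or 3 (up to 0.0623).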

How the data were processed

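RNA was sequenced from 4 Nrp-1+ and 4 Nrp-1- iTreg libraries, grouped by their labels. The authors processed the reads with CLC Genomics Workbench and Cufflinks and deposited FPKM per gene and library; the submitters' notes name GRCm38 and mm10, and the annotation is not given in the sources used here. The labels and the paper's methods name different library kits. FPKM is not a count, and a very short gene can take a large share of it.

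Genes with a mean of at least 1 FPKM over 8 libraries entered limma 3.58.1 (R 4.3.3) as log2(FPKM + 1), with lmFit and a trended eBayes and Benjamini-Hochberg adjustment over all 10467. Values for members under the filter came from a second fit, to every gene above 0 in some library. Fold changes on this scale understate those of low genes. Single values and the Prf1 to Gzmb ratio were compared with exact two-sided permutation tests (Python 3.11.15, scipy 1.17.1), which cannot go below p = 0.0286. A member with a mean under 1 FPKM in both groups was called too low to read.

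Approximate fragment numbers come from the steps of low FPKM values and GENCODE M21 transcript lengths. For each library the depth that put the largest share of values near a whole fragment was kept. At that depth 49.7% to 56.4% of the values examined lay within 0.1 of a whole fragment, against 20% by position alone. The 20% holds for a fixed depth, so the search itself raises the shares. For these reasons no count test was run, and counting intervals are not given. Coordinates are from RefSeq GRCm38.p6. Named companion genes are those with the 3 smallest adjusted p of each list, all tested genes of lists with 6 or fewer of them, and defining cell markers, Foxp3 among them. Others, including those at 0 in all libraries, were named after their values were seen. The members and lists were chosen with earlier results of these data known. In data simulated on these 10467 genes, 97 of 100 genes changed by 1 on the log2 scale and 73 of 100 changed by 0.3 were called, with 5 of 10267 unchanged genes. The changed genes came from those with a within-group SD under 0.5, and noise was drawn independently for each gene and library. In the real comparison 40.9% of tested genes were called, so these rates are not its own. Alternatives were pseudocounts of 0.1 and 0.5, no filter, a filter at 5 FPKM, other scalings, eBayes with no trend, the replicate number as a block, a fit without short RNA genes, the log2 ratio of mean FPKM, and each library left out. Among the scalings, median-of-ratios size factors lay between 1.00141 and 1.00322 in all libraries. The deposited values were thus already on nearly the same scale, and that scaling could hardly change a result. The comparison with nTreg was not analysed here. The values of 1 marker list are not reported here.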

Additional observations from a re-analysis of the deposited data

Results flagged for a closer look

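The members, Nrp1, the companion genes that passed the test and the other genes named with a level above 1 FPKM, 51 genes in all, gave 101 groups of 4 libraries whose values were not all equal. In 7 groups the highest or lowest library lay apart from the other 3, its gap to the nearest taking more of the range of the group than Dixon's 95% critical value allows, where chance gives about 1 in 20 groups, or 5.05. Among the members this was Gzma, at 1.05 FPKM in Nrp-1- replicate 4 with the others at 0.7 to 0.756. Among the companion genes, Prdm1 was at 2.97 FPKM in Nrp-1- replicate 1 (others 2.52 to 2.56), Adk at 20.6 in Nrp-1+ replicate 1 (18.1 to 18.3), Slc29a1 at 37.1 in Nrp-1+ replicate 1 (40.8 to 41.5), Ctla4 at 156 in Nrp-1- replicate 1 (161 to 162), Tgfb1 at 166 in Nrp-1+ replicate 4 (161 to 162), and Cd3e at 211 in Nrp-1+ replicate 2 (224 to 226).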

How the results depend on the processing

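Ebi3, Nt5e and, where it was tested, Fgl2 remained higher in Nrp-1+ iTreg under all 17 alternatives, with log2 fold changes of 0.68 to 0.89, 0.34 to 0.38 and 0.54 to 1.09. The log2 ratio of mean FPKM, with no test of its own, was 0.90, 0.37 and 1.18. With a filter at a mean of 5 FPKM, Fgl2 was not tested. The 2 members called lower became 1 (Entpd1) without a filter and with the filter at 5 FPKM, and 1 or 2 when a library was left out. With the replicate number as a block 0 were lower, at adjusted p = 0.0645 for Entpd1 and 0.0706 for Prf1, and the calls of Il10rb (0.0883) and Stat5b (0.0757) were also lost in limma. Same-numbered libraries did not deviate together (correlations -0.54, -0.02, 0.01 and -0.50, or -0.04, -0.06, -0.08 and -0.11 without short RNA genes), so the numbers do not pair them, and the loss under the block is not read as a weaker effect. Beside 20.9% higher and 20.0% lower over all tested genes, 14 of 58 tested companion genes were higher and 12 lower. Under the alternatives these companion counts were 10 to 17 and 9 to 14. Of the 26 calls, 16 held under every alternative run. The Nt5e to Entpd1 ratio, whose values without single libraries were added after seeing the data, was 1.4 to 1.45 times higher in Nrp-1+ iTreg with any library left out. No call changed direction. Of the members too low to read, the log2 fold change of Il10 went from 0.04 to -0.02 without Nrp-1+ replicate 2, and that of Il12a from 0.00 to -0.04 without Nrp-1+ replicate 4 and to -0.02 without Nrp-1- replicate 1 or 3. That of Gzma went from 0.06 to 0.00 without Nrp-1+ replicate 1, and to 0.13 without replicate 4 of either group. Depth limits Il10, Il12a and Areg, which rest on a few fragments.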
